A study of Mus musculus with 4 samples.

Results

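In mouse primary hepatocytes given proline, 240 of 21163 listed transcripts stood about 2-fold or more above control cells in the whole lysate and were also well measured together with the paraspeckle protein NONO. These transcripts are followed here from the lysate into the NONO immunoprecipitate (IP). They were chosen on log2(FPKM + 1) by 3 limits. Proline input minus control input was at least 1, the mean of the control and proline IPs was at least 20 FPKM, and control IP minus control input was below 4.9. FPKM counts fragments per kilobase of transcript and is scaled to the library's total, and a difference of 1 on the log2 scale is a 2-fold difference.

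The study has 4 libraries in 4 groups of 1: the input (whole cleared lysate) and the NONO IP of untreated hepatocytes, and the same pair from hepatocytes given proline. All come from hepatocytes taken from mouse liver and cultured, and treatment with proline is the only difference the labels name. The proline dose, the time of treatment, the strain and age of the mice and the number of animals behind each culture are not stated in the sources used here. No mock IP was analysed here, so RNA that sticks to beads cannot be told apart from RNA held by NONO. With 1 library a group there is no test: each value compares these libraries, and every interval printed below covers counting error only. Beyond counting error means that a 95% counting interval leaves out equality.

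NONO is an RNA-binding protein that pairs with related proteins of the same family and sits in paraspeckles, nuclear bodies built on the long noncoding RNA Neat1. Paraspeckles are known to hold back certain RNAs in the nucleus, so that an RNA can be made without reaching the ribosome. Hepatocytes take up proline, break it down to glutamate and can turn its carbon into glucose. The libraries compare the RNA found with NONO between untreated and proline-treated cells. They do not show whether that RNA is held in the nucleus. Of the 21163 Ensembl identifiers, 0 could be paired with a gene name through the tables at hand. The transcripts are therefore referred to by the length recovered from their values, which 12 members share with another member, and neither gene lists nor hepatocyte markers could be read.

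The inputs held 22188003 reads in control and 20826758 in proline, and the IPs 1786928 and 954824, so the IPs set the precision. Among the 240 transcripts the median was 876 reads in the control input and 2634 in the proline input. For the IPs the median was 139 reads in control and 94 in proline, and the lowest were 12 and 8 reads. The upper end of the counting interval of the IP ratio lay a median of 1.73 times above its lower end. A single transcript of 3894 nt took 8.19% of the reads of the control IP and 17.4% of those of the proline IP, which lowers the FPKM of every other transcript in the proline IP. Over the 12168 transcripts whose FPKM averaged 1 or more over the libraries, the median difference was -0.01 between the inputs and -0.15 between the IPs, on the log2(FPKM + 1) scale used for all differences here. All 240 are among these 12168.

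The lysate difference chose the transcripts and is given as a description. It ran from 1.01 to 4.77, with a median of 1.49 and quartiles of 1.18 and 1.90. Over all 12168 transcripts, 1104 (9.07%) met that limit, and 861 of these had too little IP signal for the second limit. The median level of the 240 was 18.6 FPKM in untreated lysate and 57.8 FPKM in proline lysate. In the IPs their medians were 30.9 FPKM in control and 39.6 FPKM in proline. So the lysate medians lay far apart, as the rule requires, and the IP medians close together.

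At the lysate limit, the members just inside were 1851 nt and 2057 nt long, with lysate differences of 1.01 and 1.02. Just outside were a transcript of 2079 nt at 0.9997 and one of 1375 nt at 0.9991. At the IP limit, the lowest members had mean IP levels of 20.4 FPKM (2907 nt) and 20.5 FPKM (2769 nt). Transcripts of 5302 nt at 19.99 FPKM and of 2320 nt at 19.9 FPKM fell just short. At the limit on control enrichment, members of 928 nt and 934 nt stood at 4.53 and 4.28. The limit left out 3 transcripts, at 5.02 (1719 nt), 5.13 (1712 nt) and 9.40 (the 3894-nt transcript).

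The IP difference was smaller than the lysate difference for all but 3 of the 240 transcripts, which the choice on the lysate difference favours. The median difference between the IPs was 0.33 for the 240 transcripts, with quartiles of 0.12 and 0.60 and a range from -1.01 to 2.20. Of the 240, 203 (84.6%) lay above 0 in the IP, against 37.1% of all 12168 transcripts. That background has no IP level limit, and without this limit 726 of 1101 raised transcripts (65.9%) lay above 0. An IP level that was 2-fold or more above control was found for 20 (8.33%), against a background of 2.96%, and all 20 were beyond counting error. For 1 (0.417%) the IP level was 2-fold or more below control, against a background of 6.25%. The IP ratio was above 1 beyond counting error for 117 of the 240 (48.8%), against 5.80% of all transcripts, and below 1 for 4 (1.67%), against 14.2%. The background holds many transcripts with fewer reads than the 240. With the 3894-nt transcript left out of the library totals, the number 2-fold or more above control in the IP came to 32 of 240 (13.3%) and the median IP difference to 0.48. That number was 4 of the 140 members (2.86%) with at least 200 IP reads, and 11 of 211 (5.21%) where the limit was set on the control IP alone.

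The limit on the mean IP level leans on the same IP values. A control IP below 20 FPKM was found for 34 members, which met the limit only through the proline IP and so had to be higher there: their median IP difference was 0.74, and 9 of the 20 transcripts with a 2-fold higher IP level are among them. A proline IP below 20 FPKM was found for 9 members, which had to be lower there, with a median of -0.35. The other 197 were at 20 FPKM or more in both IPs. Their median IP difference was 0.30, with quartiles of 0.12 and 0.56. Of these 197, 169 (85.8%) lay above 0, 11 were 2-fold or more above control and 0 were 2-fold or more below. This set leaves out by its limits every member below 20 FPKM in the proline IP, and so some of those that were lower there. With the limit of 20 FPKM set on the control IP alone, 211 raised transcripts had a median IP difference of 0.27. Of these 211, 80.1% lay above 0, 11 (5.21%) were 2-fold or more above control and 2 (0.948%) were 2-fold or more below. Among the 2626 level transcripts under the same limit these shares were 30.8%, 0.0762% and 0.990%. A limit on the control IP alone favours high control IP values, which by itself lowers the IP difference.

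**Figure D1:**
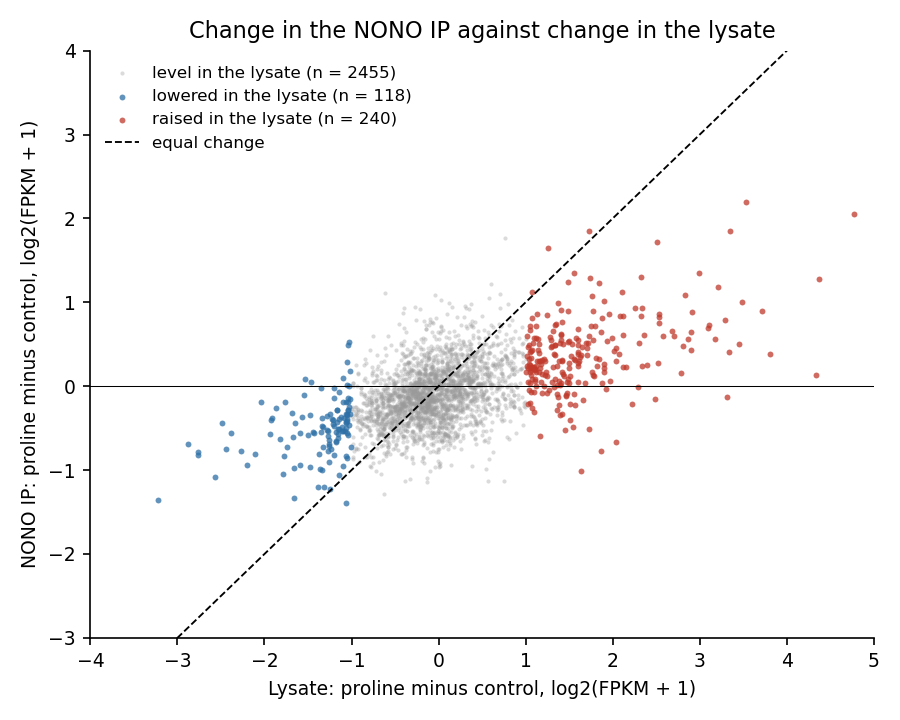
Change between proline and control in the NONO IP (vertical axis) against the change in the lysate (horizontal axis), both as differences of log2(FPKM + 1), 1 point per transcript within the IP limits. Red points are the 240 transcripts raised in the lysate, blue the 118 lowered, grey the 2455 level ones, and the dashed line marks equal change. All but 3 of the red points lie below the dashed line, as the choice on the lysate difference favours, and 203 lie above 0.

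Set against its own lysate difference, the IP difference came to a median of 21.9%, with quartiles of 7.73% and 36.5%. The choice on the lysate difference by itself lowers this share. It reached 50% or more of the lysate difference in 30 of the 240 transcripts and 100% or more in 3. On the ratio scale, the IP ratio was below the lysate ratio beyond counting error for 225 of the 240 (93.8%), against 20.3% of all transcripts, and above it for 0, against 10.6%. That comparison contains the lysate difference which chose the transcripts, so the count describes them and nothing is read from it. For the 140 members with at least 200 IP reads the median share was 18.1%. Without the 3894-nt transcript in the totals, the median share over the 240 was 31.7%.

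Transcripts within the same IP limits but with other lysate changes give the frame. For the 2455 with a lysate difference between -1 and 1, the median difference was -0.08 in the lysate and -0.11 in the IP, with IP quartiles of -0.33 and 0.12. Of these, 36.4% lay above 0 in the IP, 0.285% were 2-fold or more above control there and 0.407% as far below. The IP ratio was above 1 beyond counting error for 8.72% of them and below 1 for 23.0%. For the 118 with a lysate difference of -1 or less, the medians were -1.24 in the lysate and -0.51 in the IP, and 7.63% lay above 0. The raised transcripts stood above the level ones by 1.57 in the lysate median and by 0.44 in the IP median. A straight line of IP difference on lysate difference had a slope of 0.27 within the 240 raised transcripts, 0.28 within the 2455 level ones and 0.27 within the 118 lowered ones. The Pearson correlations behind these slopes were 0.40, 0.35 and 0.35. These describe transcripts that share the same 4 libraries, and the limits of each set cut the range of the lysate difference.

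**Figure D2:**
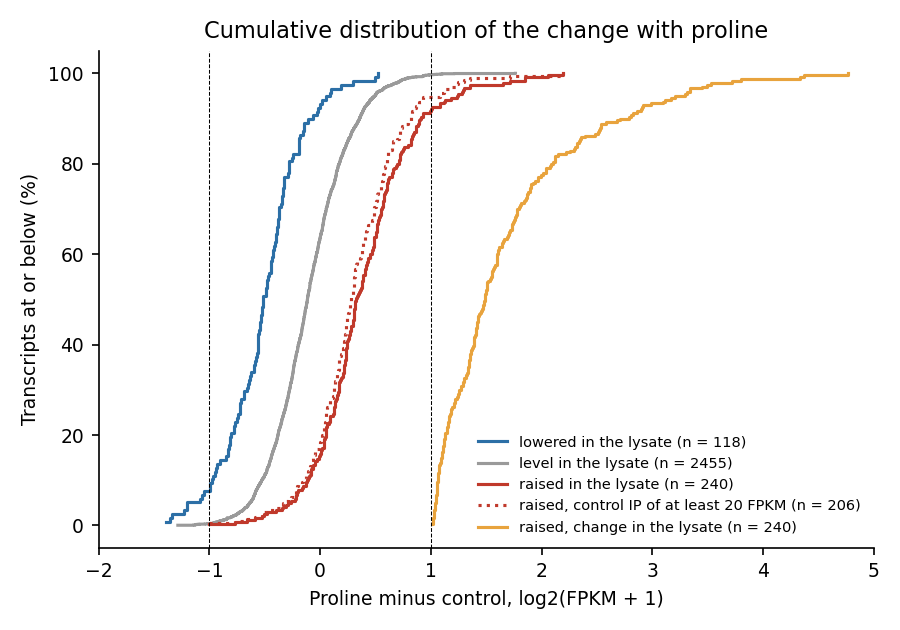
Share of transcripts (vertical axis, percent) at or below a given change with proline (horizontal axis, difference of log2(FPKM + 1)); dashed lines mark 2-fold. The IP curve of the 240 raised transcripts (red, median 0.33) lies right of the level (grey, -0.11) and lowered ones (blue, -0.51) and far left of the change of the same 240 in the lysate (orange, 1.49). The dotted line takes the 206 with a control IP of at least 20 FPKM.

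The share of the lysate difference seen in the IP had medians between 17.5% and 23.8% in all classes of lysate difference. For the 63 transcripts with a lysate difference from 1 to 1.2 the median IP difference was 0.23, a median share of 21.6%. For the 61 from 1.2 to 1.5 the values were 0.24 and 17.5%, and for the 62 from 1.5 to 2 they were 0.34 and 21.2%. The IP difference was larger in the higher classes. It was 0.60 for the 38 from 2 to 3, with a share of 22.3%, and 0.76 for the 16 at 3 or more, with a share of 23.8%. That last class holds 6 members with a control IP below 20 FPKM, which had to be higher in the proline IP, so its median leans on the IP limit.

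Enrichment in untreated cells went with the IP difference at its ends. The 7 transcripts whose control IP lay 2-fold or more below its input had a median IP difference of 1.08. In the proline IP 4 of them stood 2-fold or more above control, against 3 of 433 level transcripts of that class and 2.96% of all transcripts. Of these 4, the 470-nt one rests on 21 control and 27 proline IP reads and the 586-nt one on 32 and 38. The 39 with a control difference of IP over input from -1 to 0 had 0.54, the 80 from 0 to 1 had 0.26, the 76 from 1 to 2 had 0.31 and the 31 from 2 to 3 had 0.49. For the 7 most enriched in control, from 3 up to 4.9, the median was -0.12, and 3 lay above 0. Level transcripts of that enrichment class were low as well, at -0.56 (79 transcripts), and those of the lowest enrichment class stood at -0.10 (433 transcripts). In every class the raised transcripts had the higher median. The control IP enters both the classes and the IP difference. By itself this lowers the difference where control enrichment is high and raises it where control enrichment is low. The IP limit enters as well, through the 34 members with a control IP below 20 FPKM, which had to be higher in the proline IP. Of these 34, 18 lay above 0 in control enrichment and 1 lay 2-fold or more below its input. The others fall in the class from -1 to 0, so its median leans on the IP limit.

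Shorter transcripts had the larger IP differences. The 31 members under 1000 nt had a median of 0.58, the 77 from 1000 to 2000 nt 0.41, the 63 from 2000 to 3000 nt 0.38, the 53 from 3000 to 5000 nt 0.24 and the 16 of 5000 nt or more 0.17. Level transcripts followed the same order, from -0.0049 under 1000 nt (344 transcripts) to -0.21 at 5000 nt or more (336). Short transcripts also had fewer reads, with a median of 98 IP reads for members under 1000 nt and 474 for those of 5000 nt or more. The median lysate difference was 1.90 in the shortest class and 1.14 in the longest. The part of read number and of the lysate difference in this order was not tested.

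**Figure D3:**
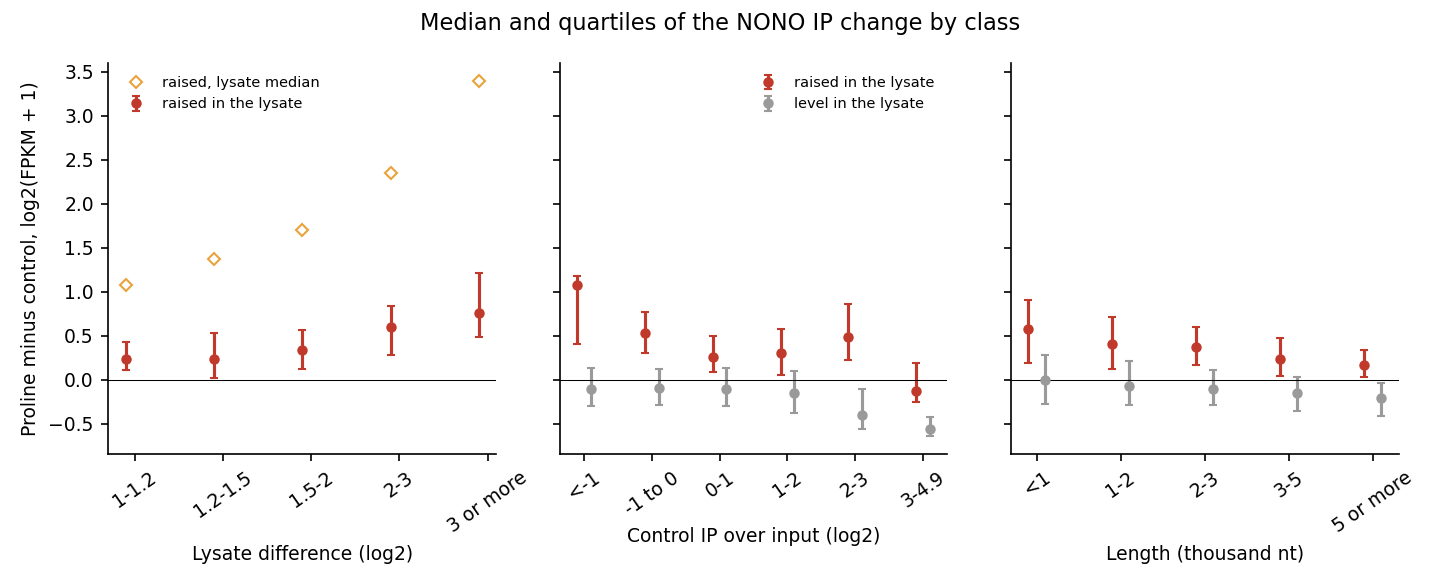
Median (points) and quartiles (bars) of the IP change, as a difference of log2(FPKM + 1), by lysate difference, by control IP over input and by length; red is the 240 raised transcripts, grey the level ones, and open diamonds the lysate median of the raised ones. The red points climb with the lysate difference but stay far below the diamonds, and lie above the grey points in each class of enrichment and length.

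Of the 8 members with the largest IP differences, 5 (837, 1037, 1656, 1664 and 2045 nt) had a control IP below 20 FPKM and met the IP limit only through the proline IP. The largest IP difference among the 240 belonged to ENSMUST00000086833 (1411 nt). Its inputs were 69.5 FPKM in control and 815 FPKM in proline, and its IPs 30.9 FPKM and 145 FPKM. The lysate ratio was 11.7 (95% counting interval 11.2 to 12.3) and the IP ratio 4.70 (3.60 to 6.195). This transcript was poor in the IP in both conditions, at 0.445 times its input in control and 0.179 times in proline.

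Second was ENSMUST00000081541 (1664 nt), which also had the largest lysate difference of all members. Its inputs were 1.22 FPKM in control and 59.5 FPKM in proline, and its IPs 7.40 FPKM and 34.0 FPKM. A lysate ratio of 48.8 stood beside an IP ratio of 4.59 (2.75 to 7.92), on 22 IP reads in control and 54 in proline. In control its IP stood at 6.07 times its input, and in proline at 0.571 times. For the transcript of 2045 nt the inputs went from 2.20 to 31.5 FPKM and the IPs from 10.9 to 42.0 FPKM, ratios of 14.3 and 3.84 (2.60 to 5.75). Its IP stayed above its input in both conditions, at 4.97 times in control and 1.33 times in proline.

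In 3 members the IP difference was as large as the lysate difference or larger, all on few IP reads. The 837-nt transcript went from 18.4 to 63.6 FPKM in the lysate and from 9.36 to 36.3 FPKM in the IP. Its ratios were 3.45 (3.05 to 3.91) and 3.88 (1.98 to 7.94), the latter on 14 and 29 reads. The 1656-nt transcript went from 12.7 to 31.6 FPKM in the lysate and from 9.80 to 32.9 FPKM in the IP, ratios of 2.49 and 3.36 (2.09 to 5.48). The 586-nt transcript went from 98.7 to 208 FPKM in the lysate and from 30.6 to 67.9 FPKM in the IP, ratios of 2.11 and 2.22 (1.35 to 3.67). All 3 were below their input in the control IP, and for none of them was the IP ratio apart from the lysate ratio beyond counting error.

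The remaining transcripts among the 8 largest IP differences were of 727, 1037 and 1930 nt. The 727-nt one stood at 22.4 and 132 FPKM in the control and proline inputs and at 26.9 and 90.8 FPKM in the IPs, an IP ratio of 3.37 (2.19 to 5.25). For the 1037-nt one the inputs were 15.1 and 46.3 FPKM and the IPs 12.4 and 33.3 FPKM, an IP ratio of 2.69 (1.53 to 4.79). The 1930-nt transcript in this group had inputs of 5.95 and 54.2 FPKM and IPs of 27.0 and 70.5 FPKM, an IP ratio of 2.62 (1.99 to 3.45). Among these 8, the control difference of IP over input was above 1 for the 1664-nt, 2045-nt and 1930-nt transcripts, at 1.92, 1.90 and 2.01.

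At the other end, ENSMUST00000090782 (520 nt) was the member with the lowest IP difference, -1.01. Its inputs were 21.3 FPKM in control and 68.5 FPKM in proline, while its IPs were 33.4 FPKM and 16.1 FPKM. The IP ratio of 0.483 had a counting interval of 0.192 to 1.07, on 31 and 8 reads, so the lower IP level is within counting error. The next lowest, ENSMUST00000109775 (1573 nt), went from 6.91 to 27.8 FPKM in the lysate and from 55.1 to 32.0 FPKM in the IP. Its IP ratio was 0.580 (0.410 to 0.806), beyond counting error. Its IP stood at 7.99 times its input in control and 1.15 times in proline.

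Of the 4 members with an IP ratio below 1 beyond counting error, the other 3 had the same form. The 1560-nt transcript stood at 16.4 and 38.0 FPKM in the control and proline inputs and at 62.1 and 41.0 FPKM in the IPs, an IP ratio of 0.660 (0.485 to 0.888). The 2863-nt transcript had inputs of 3.64 and 11.7 FPKM and IPs of 41.0 and 28.2 FPKM, an IP ratio of 0.686 (0.521 to 0.895). The 3669-nt transcript had inputs of 5.12 and 19.3 FPKM and IPs of 28.1 and 19.4 FPKM, an IP ratio of 0.692 (0.516 to 0.918). All 4 stood at 3.78 times their input or more in the control IP. The other 3 of the 8 lowest, of 643 nt, of 1537 nt and a second transcript of 1930 nt, had IP ratios of 0.624, 0.705 and 0.749 whose intervals include 1.

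**Figure D4:**
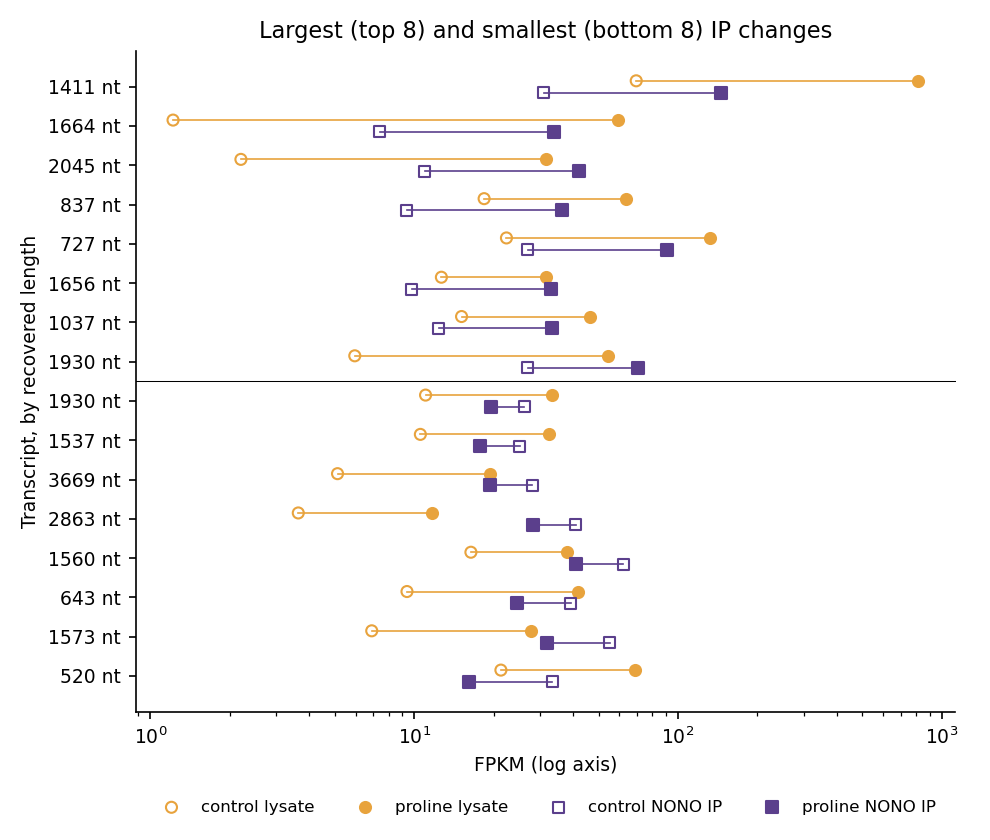
FPKM (log axis) in the 4 libraries for the 8 members with the largest IP difference (top) and the 8 with the smallest (bottom), labelled by length. Circles are lysates and squares NONO IPs, open for control and filled for proline. In the top 8 both lines run to the right with proline; in the bottom 8 the lysate line runs right and the IP line runs left.

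The 6 members with the largest lysate differences had IP differences from 0.14 to 2.20. The 1664-nt transcript, first in lysate difference, had the second largest IP difference of all members, 2.06. After the 1664-nt transcript, the 2490-nt one had the largest lysate difference, with inputs of 1.97 and 60.3 FPKM and IPs of 15.5 and 39.1 FPKM, ratios of 30.6 and 2.52 (1.83 to 3.496). The 1712-nt member had inputs of 4.69 and 114 FPKM. Its IPs, at 38.2 and 42.2 FPKM, differed by a ratio of 1.10 (0.808 to 1.499), within counting error. The 3290-nt transcript had inputs of 1.52 and 32.3 FPKM and IPs of 14.8 and 28.3 FPKM, ratios of 21.2 and 1.91 (1.41 to 2.60). The 2490-nt, 1712-nt and 3290-nt transcripts stood far above their input in the control IP, at 7.86, 8.16 and 9.73 times. The last of the 6 largest lysate differences, 3.53, belonged to the 1411-nt transcript. This transcript had the largest IP difference of all members, 2.20, and a control IP at 0.445 times its input.

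The 4 members with the most IP reads had narrow counting intervals. They too were chosen on the lysate difference, so the gap between their lysate and IP ratios is given as a description. The transcript of 928 nt, on 2869 control and 2000 proline IP reads, had inputs of 73.8 and 1043 FPKM and IPs of 1730.1 and 2257 FPKM. Its lysate ratio was 14.1 (13.4 to 14.9) and its IP ratio 1.30 (1.23 to 1.38). Its IP stood at 23.5 times its input in control and 2.16 times in proline. The 1345-nt transcript, with the most IP reads of all members, had inputs of 925 and 3364 FPKM and IPs of 1304 and 2046 FPKM, ratios of 3.64 (3.59 to 3.68) and 1.57 (1.49 to 1.65). The 2085-nt transcript had inputs of 538 and 1318 FPKM and IPs of 545 and 803 FPKM, ratios of 2.45 and 1.47 (1.38 to 1.57). The 2057-nt transcript had inputs of 181 and 368 FPKM and IPs of 797 and 947 FPKM, ratios of 2.03 (1.98 to 2.08) and 1.19 (1.12 to 1.26). In these 4 the IP was higher in proline beyond counting error, and by less than the lysate.

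The 3 transcripts kept out by the limit on control enrichment did not share 1 pattern. The 3894-nt one had a lysate ratio of 2.46 and an IP ratio of 2.12, an IP difference of 85.1% of its lysate difference. The 1719-nt one had inputs of 2.31 and 36.3 FPKM and IPs of 106 and 95.7 FPKM, an IP ratio of 0.899 (0.738 to 1.09). The excluded 1712-nt one had inputs of 1.08 and 7.94 FPKM and IPs of 71.6 and 89.9 FPKM, an IP ratio of 1.26 (1.01 to 1.56).

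Summed over the 240, the transcripts took 1.98% of all reads in the control input (exact 95% binomial interval 1.98 to 1.99) and 6.26% in the proline input (6.25 to 6.27). They took 3.31% of the control IP reads (3.28 to 3.33) and 4.35% of the proline IP reads (4.31 to 4.39). The summed share was thus 3.16 times higher in the lysate and 1.31 times higher in the IP, or 1.46 times without the 3894-nt transcript in the totals. In FPKM the sum gained 22328 in the lysate and 6294 in the IP. The 10 members with the largest IP gain made up 51.0% of the IP gain, and 8 of them are also among the 10 with the largest lysate gain. The 2455 level transcripts took 59.1% and 57.8% of the input reads and 51.5% and 47.5% of the IP reads, in control and proline.

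The position of the IP against its own input differed between the conditions. In control 114 of the 240 (47.5%) had an IP level 2-fold or more above the input, against 13.4% of all transcripts and 9.69% of the level ones. For 7 (2.92%) it was 2-fold or more below, against 14.6% and 17.6%. In proline 17 (7.08%) had an IP level 2-fold or more above the input, against 8.88% of all transcripts and 8.39% of the level ones. For 53 (22.1%) it was 2-fold or more below, against 19.5% and 17.3%. The median difference of IP over input was 0.94 in control and -0.39 in proline. For the level transcripts it was -0.31 and -0.32. The IP limit also favours a high IP over input: the 1104 transcripts raised in the lysate, with no IP limits, had a proline median of -0.81, and 43.0% of them were 2-fold or more below input and 3.26% as far above. Of the 194 that lay above 0 in control, 117 lay below 0 in proline, and 1 of the 240 went the other way. A low control input and a high proline input are what the rule selects, so these counts are given as a description.

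**Figure D5:**
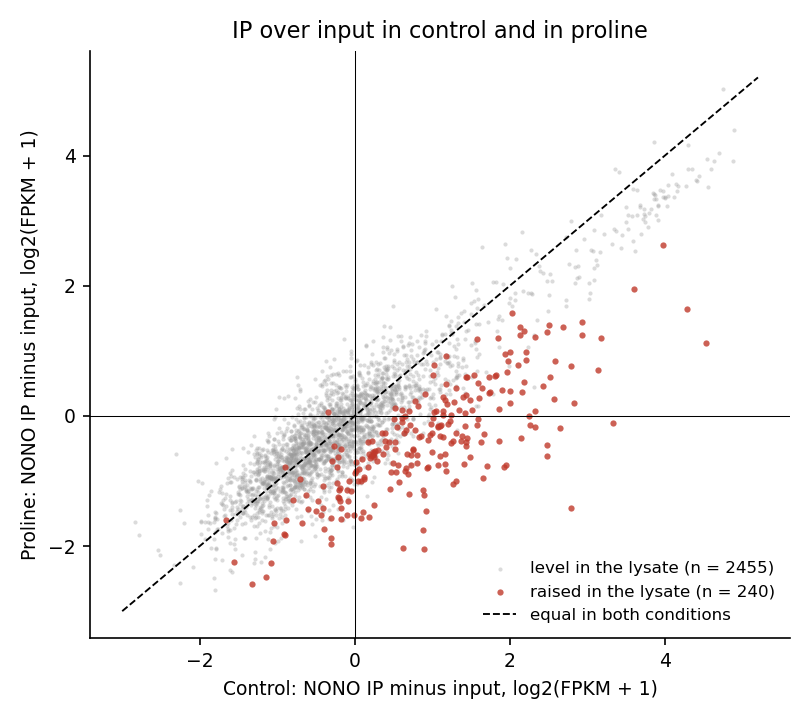
IP over input, as a difference of log2(FPKM + 1), in control (horizontal axis) and in proline (vertical axis), 1 point per transcript; red is the 240 raised transcripts, grey the 2455 level ones, and the dashed line marks equal values. Grey points spread around the dashed line (medians -0.31 and -0.32), and all but 3 of the red points lie below it (medians 0.94 and -0.39), as the choice on the lysate difference favours.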

How the data were processed

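RNA from inputs and NONO IPs of 4 mouse hepatocyte libraries was analysed. The authors deposited FPKM per Ensembl transcript for each library. The submitters' processing notes name the builds GRCm38 and mm10; aligner, counter and annotation are not stated in the sources used here. Per the labels' protocols, lysates were incubated with antibody on beads, and libraries made with an NEB kit. Differences were taken on log2(FPKM + 1), with FPKM as deposited. Library totals, read numbers and transcript lengths were recovered as the smallest whole numbers that give the deposited values, for 20229 of 20230 transcripts above 0. In simulated libraries for the same comparison, reads and length were exact for 93.0% of 199 chosen transcripts; where they share a factor, both come out too small and the interval too wide. Whether reads or fragments were counted is not stated, and PCR copies lie outside the intervals. Counting intervals of a ratio of 2 libraries are exact (Clopper-Pearson); those of an IP ratio against a lysate ratio use the normal distribution of the log, adding 0.5 to each read number (SciPy 1.17.1, NumPy 2.4.6, pandas 2.3.3). The deposited FPKM allow no test across groups of 1 library, so none was run. The members and lists were chosen with earlier results of these data known. Named transcripts are the 8 largest and 8 smallest IP differences, the 6 largest lysate differences, the 4 with most IP reads and those nearest each limit; at most 2 identifiers in each direction are printed. The excluded and the level transcripts, members with a share of 100% or more and those below 1 beyond counting error were added after their values were seen. Of 14 alternative settings, 3 were chosen after seeing the data.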

Additional observations from a re-analysis of the deposited data

Results flagged for a closer look

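The 520-nt member, ENSMUST00000090782, had differences of opposite sign in the 2 kinds of library, 1.64 in the lysate and -1.01 in the IP. Its lower IP level, on 31 control and 8 proline reads, is within counting error. For the 1712-nt member the IP lay 2-fold or more above its input in control, by 2.79, and 2-fold or more below it in proline, at -1.41. Its IPs, at 38.2 and 42.2 FPKM, differed within counting error, while its inputs were 4.69 and 114 FPKM. The 1756-nt member stood at 1.26 in control and -1.04 in proline, with IPs of 52.9 and 52.5 FPKM and inputs of 21.5 and 109 FPKM. The lysate difference that chose these members enters each of the 3 contrasts. The difference was not tested for any of the 3, with 1 library in each group.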

How the results depend on the processing

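No paired analysis was possible because each group has 1 library. Of 140 values recomputed under 14 settings, 100 stayed close to the reported value and 40 moved. Close meant within 1.5-fold for a percentage of members or the slope, and within a 95% interval over the members for a median. That interval covers the spread between members of the same 4 libraries, not the spread between cultures. Only the medians and the slope could turn direction, and none did. Some values could not change by construction, such as the slope under both centrings and the share above 0 under other pseudocounts. The median IP difference was 0.27 with equal FPKM totals, 0.47 centred on all transcripts, 0.44 centred on the level ones, 0.48 without the most-read transcript, 0.23 with no IP level limit (1101 transcripts), 0.48 at a lysate difference of at least 1.5, 0.27 with at least 200 IP reads and 0.27 on the control IP limit alone. The median share, in the same order without the lysate setting, was 18.6%, 31.3%, 27.2%, 31.7%, 14.4%, 18.1% and 18.3%. The members 2-fold or more above control in the IP were 12.9% centred on all transcripts, 13.3% without the most-read transcript, 14.7% at a lysate difference of 1.5, 2.86% with 200 IP reads and 5.21% on the control IP limit. Those 2-fold or more below were 0% with a pseudocount of 5, under both centrings, without the most-read transcript, at a mean IP of 50 FPKM and with 200 IP reads; the share was 0.973% at a mean IP of 10 FPKM, 3.81% with no IP limit, 0.862% at a lysate difference of 1.5 and 0.948% on the control IP limit. Above 1 beyond counting error were 21.2% with no IP limit. Control IP over input had medians of 1.12 with equal totals, 0.47 with no IP limit, 1.33 at a lysate difference of 1.5 and 1.25 centred on level transcripts. In proline it was -0.24 with equal totals, -0.087 centred on all, -0.12 without the most-read transcript, -0.81 with no IP limit and -0.069 centred on level ones. The causes of these shifts were not tested beyond what each setting changes by its construction.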
